A study of Mus musculus with 18 samples.

Results

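The 6 arrays compared here, of 18 in the study, measured cells sorted as satellite cells from wild type or Sdc4-/- muscle 12 h post-injury. They were chosen by their titles, as replicates 1 to 3 of each genotype at 12 h, and every one of the 45101 probe sets on the array was compared. Wild type mice were C57Bl/6 x DBA2 hybrids and Sdc4-/- mice were homozygous for a deletion of syndecan-4 on C57Bl/6, so that genotype and strain cannot be told apart in any difference given below. The mice were females, of 3-6 months on the labels and 3 months in the study's methods for the injured muscles. Both groups shared the same injury, an injection of 1.2% barium chloride into the tibialis anterior muscle 12 h before harvest, and the same sort, on immunoreactivity to syndecan-3. The other groups, used for comparison, were uninjured and 48 h post-injury cells of each genotype, with 3 arrays a group except for uninjured wild type cells, where 2 of 3 were fitted. The number of mice behind each array is not given in the sources used here. The p-values measure a spread between arrays within groups, which may be technical. It was pooled over the 17 fitted arrays of the 6 groups as if equal in each. A larger spread in 1 group, such as the wild type 12 h arrays described below, is therefore not reflected in them.

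Satellite cells are the muscle stem cells that lie between a myofiber and its basement membrane, quiescent at rest, and that activate and re-enter the cell cycle after injury. Syndecan-4 is a transmembrane heparan sulfate proteoglycan that binds growth factors and fibronectin, signals through protein kinase C alpha and Rac1 at focal adhesions, and marks satellite cells together with syndecan-3. In the hours after injury a muscle also fills with neutrophils and then monocytes, which carry their own strong transcript programs. The question put to the 12 h arrays was how gene expression of Sdc4-/- cells differed from that of wild type cells at the time wild type cells activate.

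Values are log2 GCRMA values as deposited, and a difference is the mean of the 3 Sdc4-/- arrays minus the mean of the 3 wild type arrays on that scale, so that 1 is a 2-fold difference. A gene is called where the limma fit gave an adjusted p under 0.05, with Benjamini-Hochberg adjustment over all probe sets, and each gene is represented by its probe set with the highest mean. Values below about 5 lie near the background of these arrays. The arrays of the 2 groups differed as a whole. Between 2832 and 3982 probe sets were above 5 on the wild type arrays (mean 3440 ± 578, SD, n = 3) and between 5076 and 5565 on the Sdc4-/- arrays (mean 5335 ± 246, SD, n = 3). The 18 hybridization-control probe sets, which read transcripts added in fixed amounts to each sample before hybridization, averaged 13.5 to 14.3 on wild type arrays and 9.71 to 12.3 on Sdc4-/- arrays, with no overlap. Wild type replicates correlated with each other at r of 0.66 to 0.75 over all probe sets, and Sdc4-/- replicates at 0.89 to 0.94. The middle Actb control probe set read 4.54, 3.25 and 3.69 on wild type arrays and 9.14, 8.95 and 8.75 on Sdc4-/- arrays, while the 3' Gapdh set read 9.77, 4.64 and 9.76 against 9.05, 9.27 and 9.06. The 5' Gapdh set read 3.86, 3.35 and 3.16 against 6.18, 6.36 and 5.15 and was called higher in Sdc4-/- cells (2.44, limma adjusted p = 0.00446), as were all 3 control sets for 18S ribosomal RNA. The 3' set exceeded the 5' set, a sign of RNA quality, by 5.91, 1.28 and 6.603 for Gapdh on wild type arrays against 2.87, 2.91 and 3.91 on Sdc4-/- arrays, and by 6.36, 0.46 and 3.79 against 7.74, 7.06 and 6.44 for Actb. Both 3' sets were near background on wild type replicate 2. The part of these array-wide differences in the results below was not tested. Counts are also given after adjustment for the hybridization controls, whose mean on each array then enters the fit as a covariate (the control covariate below). That mean did not overlap between the 2 groups, so the covariate and genotype vary together at 12 h. A call can be lost with it because the difference is estimated less precisely, so a lost call does not show what made the difference. Of 101 called genes named in this section 50 remained called with the control covariate. The probe sets of a gene did not always move together. Among 70 of these genes with more than 1 probe set, all sets were called the same way in 15, and Eif4h, H2-D1, Cd44, Cdt1, Celf2 and Arpc5 had at least 1 set called lower beside those called higher.

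The cell type on the labels was checked against its markers. Pax7, the defining transcription factor of satellite cells, read 2.79, 2.50 and 2.50 on wild type arrays and 2.43, 2.71 and 2.45 on Sdc4-/- arrays, at background on all 6. Myod1, the factor that marks their activation, was likewise between 2.34 and 2.74 on every array. Myf5 and Cdh15, other markers of the lineage, stayed under 5 as well, as did 19 of 32 markers of satellite cells and quiescence. Sdc3, the sorted antigen, lay around that level, at 4.996, 5.10 and 4.25 on wild type and 6.51, 5.69 and 5.76 on Sdc4-/- arrays, a difference of 1.21 that was not called (limma, adjusted p = 0.0575). The targeted gene could not check the labels at this time. Its 2 probe sets read 2.64, 2.53 and 3.64 (first) and 4.18, 4.20 and 3.71 (second) in wild type cells, against 2.56, 2.41 and 2.56 (first) and 4.15, 4.34 and 5.66 (second) in Sdc4-/- cells, with differences of -0.42 and 0.69 that were not called. At 48 h the same probe sets were lower in Sdc4-/- cells by -4.01 and -2.74. Where they lie relative to the deleted part of the gene was not examined.

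Promoter sequences are shown for genes of the 3 groups that the results below turn on: inflammatory mediators, lysosome genes and endoplasmic reticulum chaperones. Promoters of 300 bases, from 250 before to 50 after the start, came from RefSeq on GRCm38.p6 and both strands were searched. The NF-kappaB motif, GGG and TTTCC with any pair of bases between them, is capitalized below and was in 1.63% of 32851 promoters, which is 1.89% of genes, and in 2.4% of the genes called higher. It was found in 5 of 19 genes of the inflammatory cytokine and NF-kappaB target list that had a promoter in the table, of which Csf1 and Il1rn were called, and in 1 of 13 interleukin-6 family genes, Il6. Of 13 chemokine genes 4 had it, with Ccl9 called. A list of NF-kappaB targets can hold the motif by its making, so its share is a description. The AP-1 motif, TGA and TCA with any base between them, was in 8.06% of genes called higher and 8.97% of all genes. The first window is at chr5:30013060-30013089 on the plus strand, the second at chr3:107760604-107760633 on the minus strand and the third at chr2:24345310-24345339 on the plus strand. In Csf1 the match is on the strand opposite to the gene.
Il6: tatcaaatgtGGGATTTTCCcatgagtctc
Csf1: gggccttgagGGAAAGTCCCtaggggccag
Il1rn: ggaaatatgaGGGTTTTTCCgcttctgaca

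The CLEAR motif TCACGTGA, the palindrome shared by many lysosomal promoters, was in 0.974% of all promoters. It was in 4 of 19 lysosome genes with a promoter in the table, Atp6v0d1, Atp6v1a, Ctsa and Ctsd. All of them were called higher, as were 18 of the 24 measured genes of that list. Lysosome genes can hold the motif by the way it was defined, so its share among them is a description. Over all genes its share was 1.12%, and over the genes called higher 3.18%. The windows lie at chr8:105566050-105566079 and chr16:44139373-44139402, both on the minus strand, for the V-ATPase subunits, and at chr7:142387908-142387937 on the minus strand for Ctsd.
Atp6v0d1: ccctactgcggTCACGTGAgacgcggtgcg
Atp6v1a: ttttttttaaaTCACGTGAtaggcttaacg
Ctsd: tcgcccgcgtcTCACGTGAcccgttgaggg

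The endoplasmic reticulum stress response element, CCAAT and CCACG with any 9 bases between them, has its fixed letters in capitals and was in 0.119% of all promoters and in 7 of 20 endoplasmic reticulum folding genes. Not all of these 7 were called higher, but Calr, Canx and Hsp90b1 were among those that were. Of the 22 measured genes of the list 12 were called higher. Over all genes the share of the element was 0.137%, and over the genes called higher 0.62%. Folding genes can hold the element by the way it was defined, so its share among them is a description. The 2 windows shown lie at chr11:50325794-50325823 and chr10:86705632-86705661 on the minus strand. A match describes these letters only and is not evidence of binding in these cells.
Canx: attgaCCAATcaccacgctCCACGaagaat
Hsp90b1: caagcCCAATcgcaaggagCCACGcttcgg

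At 12 h post-injury 1580 of 18194 genes were higher in Sdc4-/- cells (8.68%) and 1886 were lower (10.4%), but the 2 directions were unlike in size and level. Genes called higher had a median of 4.07 in wild type cells against 7.28 in Sdc4-/- cells, 1278 of them differed by at least 2 on the log2 scale and 404 by at least 4. Those called lower had medians of 3.61 in wild type cells against 2.89 in Sdc4-/- cells, 92.9% had a wild type mean under 5, 34 differed by at least 2 and 0 by at least 4. The median difference over all genes was -0.08. Of 6279 genes that averaged 4 or more on the fitted arrays, 1515 were higher (24.1%) and 104 lower (1.66%). Nearly all members called higher in the gene lists below averaged 4 or more. Their counts are therefore to be read beside 24.1% as well as beside 8.68%. Over probe sets, 2468 were higher (5.47%) and 5386 lower (11.9%), so that 31.4% of the calls were higher. That share was 48.9% after each array was shifted by its 75th percentile. The study's own threshold was a 2-fold change with p at or under 0.01. It passed 3419 probe sets (7.58%), of which 2443 were higher (5.42%) and 976 lower (2.16%).

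The calls were sensitive to the control covariate, to the set of arrays fitted and to single arrays. With the control covariate 312 of the 1580 genes remained called higher and 23 of the 1886 lower, while 1011 and 1027 remained under each omission of one 12 h array. With the 6 compared arrays fitted alone, 539 remained higher and 352 lower. Genes named below that then lost the call included Clec4e, Hdc, Trem1, H2-Eb1, H2-D1, Osmr, Pim1, Rhog, Mki67, Tob1 and Btg1. Leaving out Sdc4-/- replicate 2 cut the genes called lower to 1126 and the probe sets called lower to 3195, and leaving out Sdc4-/- replicate 1 cut the probe sets to 3552. After a further quantile normalization 1041 of the genes remained higher, and the lists described below then held 7 macrophage, 4 antigen presentation, 6 NF-kappaB target, 6 immediate early, 9 oxidative phosphorylation and 6 actin assembly calls. A core of 227 genes higher and 19 lower was called in every setting. Here and below, every setting leaves aside the minimum mean of 4, where fewer genes were tested. It also leaves aside the averaging of a gene's probe sets and the omission of single uninjured or 48 h arrays. A call in every setting thus concerns 1 probe set of a gene and not its others.

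**Figure D1:**
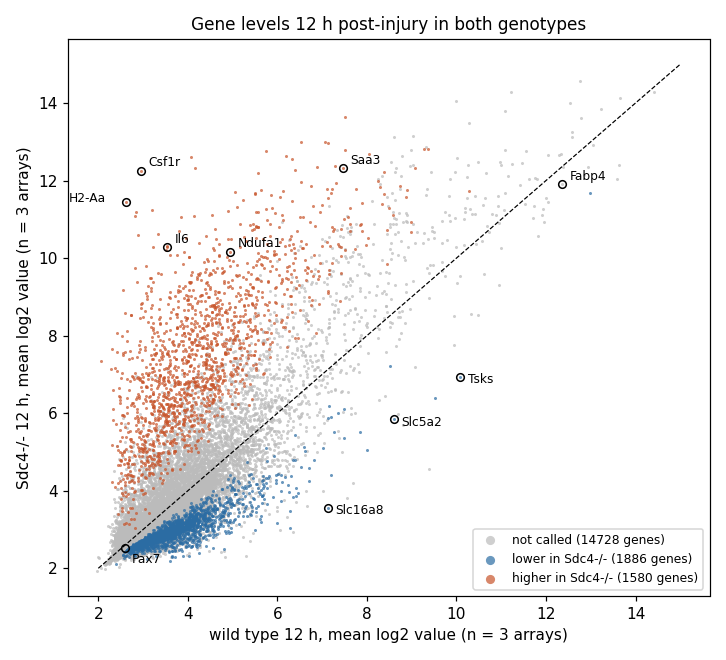
Mean log2 value of each of 18194 genes on the 3 wild type 12 h arrays (horizontal) against the 3 Sdc4-/- 12 h arrays (vertical), with called genes coloured and the line of equal values dashed. Genes called higher (1580) spread far above the line up to Csf1r, while those called lower (1886) lie mostly under 5 on both axes.

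The largest difference belonged to Csf1r, the receptor for macrophage colony-stimulating factor. It read 2.23, 4.50 and 2.12 on the wild type arrays and 12.49, 12.01 and 12.26 on the Sdc4-/- arrays. Every Sdc4-/- array was thus near the top of the scale and every wild type array at or near background, a difference of 9.30 ± 0.66 (SE, limma adjusted p = 5.63e-06). H2-Aa, a chain of MHC class II, read 3.10, 2.40 and 2.38 in wild type cells against 11.56, 12.16 and 10.59 in Sdc4-/- cells, a difference of 8.81. Grn, which encodes the lysosomal growth factor progranulin, read 6.65, 2.57 and 2.98 against 12.41, 12.45 and 12.97, a difference of 8.54. For Grn wild type replicate 1 stood above the other wild type arrays and still far below the Sdc4-/- arrays.

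The next largest were the calcium-binding protein gene Efhd2 (8.35), the platelet and macrophage chemokine gene Pf4 (8.27) and the myeloid chemokine genes Ccl6 (8.14) and Ccl9 (8.06). Pf4 read 2.94, 2.76 and 2.73 on wild type arrays against 9.85, 11.92 and 11.50. Bcl2l11, which encodes the proapoptotic protein Bim, differed by 7.70 and Serpinb2, an inhibitor of plasminogen activators, by 6.78; both lost the call with the control covariate. The other 6 of the 15 largest were housekeeping or trafficking genes: Eif4h (translation initiation, 7.30), Mrpl39 (mitochondrial ribosome, 7.21), Vamp3 (endosomal SNARE, 7.08), Rnf149 (E3 ubiquitin ligase, 6.96), Bzw1 (translation, 6.93) and Cct3 (chaperonin subunit, 6.91). Not every probe set showed this. The call was made in 1 of 5 probe sets of Bzw1, 3 of 6 of Eif4h (with 1 lower), 3 of 5 of Vamp3, 3 of 7 of Cct3, 1 of 2 of Ccl9 and 3 of 5 of Bcl2l11.

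Among genes lower in Sdc4-/- cells the largest differences were smaller. Slc16a8, a monocarboxylate transporter, read 7.85, 6.57 and 6.95 on the wild type arrays and 3.13, 3.11 and 4.43 on the Sdc4-/- arrays, a difference of -3.56 ± 0.35 (SE, limma adjusted p = 5.55e-05). Slc5a2, a sodium-glucose cotransporter, read 8.36, 8.82 and 8.61 against 6.17, 5.67 and 5.67, and the spread within each group was small next to its difference of -2.76 (adjusted p = 1.66e-06). Uqcrh, a hinge subunit of respiratory complex III, read 7.77, 7.69 and 8.55 against 5.54, 5.10 and 4.49 (-2.96). Col22a1, a collagen of tissue junctions, read 6.00, 6.26 and 5.74 against 2.96, 2.99 and 3.53 (-2.84). These 4 genes kept their calls in every setting, but a second probe set of Slc16a8 and of Uqcrh differed by -0.06 and 0.01 only.

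Tsks, a testis kinase substrate (-3.14), Ucma, a cartilage matrix protein (-2.81), Pik3ip1, an inhibitor of phosphatidylinositol 3-kinase (-2.80), Tjp3, a tight junction protein (-2.52), and Rnf222 (-2.44) were lower, as were Scaf4 (-2.53), Gpr135 (-2.51) and Pfn3 (-2.35). All 8 lost the call with the control covariate. The calls of Enpp3 (-3.23), Gm13238 (-3.13) and Cep128 (-2.53) depended on single arrays: without wild type replicate 2 the differences were -2.03, -2.22 and -1.71 and none was called, and each lost its call without Sdc4-/- replicate 1 or 2 too, at -3.30 and -3.26 for Enpp3, -2.87 and -2.51 for Gm13238 and -2.72 and -2.39 for Cep128. Enpp3 also lost it without wild type replicate 1 (-3.10) or Sdc4-/- replicate 3 (-3.14), and Cep128 without Sdc4-/- replicate 3 (-2.48).

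**Figure D2:**
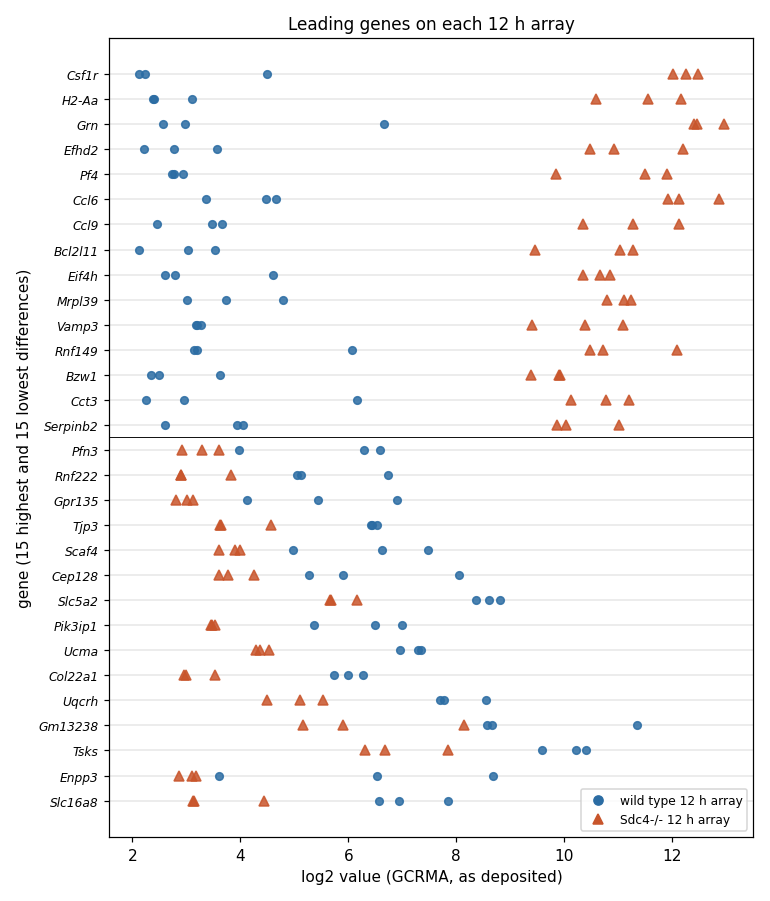
Log2 values on each of the 3 wild type (circles) and 3 Sdc4-/- (triangles) 12 h arrays for the 15 genes with the largest positive and the 15 with the largest negative differences. Genes were taken only where the groups did not overlap, so the gap between them is fixed by the choice. The Sdc4-/- arrays read between 9.38 and 12.97 for the 15 genes of the upper panel.

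Transcripts of myeloid cells were higher in Sdc4-/- cells. Of 21 monocyte and macrophage markers 13 were higher and 0 lower, beside 8.68% of all genes higher, with a median difference of 3.26 beside -0.08 over all genes. Of the 19 markers that averaged 4 or more 13 were higher, with a median of 3.52, beside 24.1% and 0.72 over all such genes. Csf1r has been given above. Ctss, a lysosomal protease of antigen-presenting cells, read 8.01, 3.95 and 6.62 in wild type cells against 12.37, 12.68 and 12.82 in Sdc4-/- cells (6.43). C1qb, a chain of complement C1q, differed by 5.22 and the scavenger receptor gene Cd68 by 4.14. In these genes too each Sdc4-/- array stood above each wild type array. Here and below, genes named from a list were chosen by a small adjusted p, which favours such a gap, so the gap is a description. Over all genes the arrays did not overlap in 2145 that were higher (11.8%) and 6604 that were lower (36.3%). The list held 1 call with the control covariate. Of 16 MHC class II and antigen presentation genes 9 were higher (median 2.34), among them H2-Eb1 (3.30) and the class I gene H2-D1 (2.58). That count was 1 with the control covariate.

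Of 18 neutrophil markers 7 were higher and 0 lower, with a median of 2.81 and 0 calls under the control covariate. Clec4e, a C-type lectin receptor for damaged cells, read 9.16, 3.00 and 6.84 in wild type cells against 13.39, 12.63 and 11.67 in Sdc4-/- cells (6.23). Hdc, the enzyme that makes histamine, differed by 5.27, Trem1, an amplifying receptor of myeloid cells, by 4.54, and the gelatinase gene Mmp9 by 3.98. Wild type replicate 2 was the lowest array for each of these 4 genes.

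The mean level of each marker list was compared between arrays. The mean over the macrophage list ranged from 3.93 to 4.41 on wild type and from 7.18 to 8.16 on Sdc4-/- arrays, and that over the neutrophil list from 3.399 to 5.70 and from 6.24 to 8.12, neither overlapping. On all 6 arrays 6 of 21 macrophage and 5 of 18 neutrophil markers stayed under 5. The endothelial, fibroblast and muscle fibre lists gave overlapping ranges. The endothelial list ranged from 4.75 to 5.39 and from 4.49 to 6.27, the fibroblast and fibro-adipogenic progenitor list from 3.77 to 4.53 and from 3.59 to 5.49, and the muscle fibre list from 4.07 to 4.44 and from 3.47 to 5.19. No endothelial marker of 18, fibroblast marker of 16 or Schwann cell marker of 7 was called. Of other markers 1 of 13 pericyte, 1 of 20 muscle fibre, 1 of 12 lymphocyte and 1 of 4 erythroid were lower, beside 10.4% of all genes. The satellite cell list also separated the genotypes, at 3.71 to 3.91 on wild type and 3.97 to 4.09 on Sdc4-/- arrays, all near background. In RNA from sorted cells, fewer cells of a type and less RNA per cell cannot be told apart, and the part of myeloid cells in the gate in the differences below was not tested.

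Some transcripts of other lineages were abundant and not called. Fabp4, a lipid chaperone of endothelial cells and adipocytes, read 12.33, 12.19 and 12.55 in wild type cells against 11.56, 10.56 and 13.58 in Sdc4-/- cells, with the groups overlapping (-0.46, adjusted p = 0.73). Rgs5 of pericytes read 12.24, 9.79 and 10.86 against 9.35, 7.596 and 11.004, and Col1a2, a fibrillar collagen chain, 7.80, 3.37 and 5.15 against 6.70, 7.54 and 5.54. For all of these the arrays of one group spread over more than the difference between groups.

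**Figure D3:**
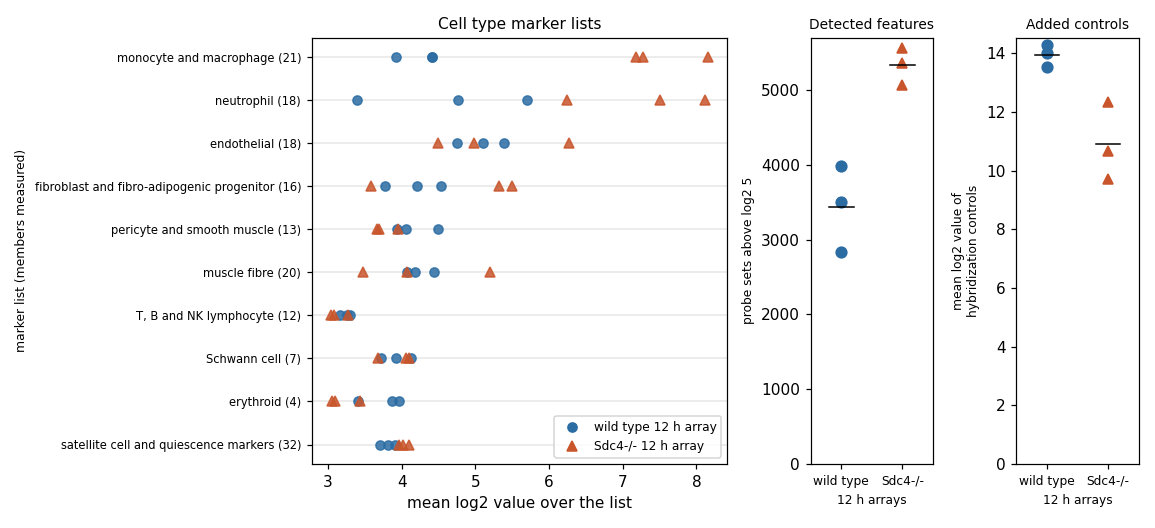
Left, mean log2 value over each cell type marker list on each 12 h array (circles wild type, triangles Sdc4-/-, members measured in parentheses); middle and right, the number of probe sets above 5 and the mean of the 18 hybridization-control probe sets, with lines at the group means. Macrophage and neutrophil lists separate the genotypes, as do the satellite cell list by a small margin and both array-wide measures, while endothelial, fibroblast, pericyte and muscle fibre lists overlap.

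Inflammatory mediators were the next group. Of 26 inflammatory cytokine and NF-kappaB target genes 12 were higher and 0 lower, with a median of 3.77 and 1 call under the control covariate. Il6, a cytokine that acts on satellite cells and leukocytes through Stat3, read 4.52, 3.07 and 3.04 in wild type cells against 10.34, 10.19 and 10.31 in Sdc4-/- cells, the window of its promoter being shown above. All 3 Sdc4-/- arrays lay close together and above every wild type array, and the difference of 6.73 ± 0.54 was called in every setting (limma adjusted p = 1.3e-05). Il1rn, the antagonist of the interleukin-1 receptor, read 3.31, 2.35 and 4.36 against 10.78, 9.17 and 8.89 (6.27). Ptgs2, the inducible enzyme of prostaglandin synthesis, differed by 5.42, the tumour necrosis factor receptor gene Tnfrsf1b by 5.33 and Csf1, the ligand of Csf1r, by 4.85. These last 3 calls did not hold with the control covariate.

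Ligands, receptors and targets of the interleukin-6 family were higher for 5 of 15 genes, a count that fell to 3 without wild type replicate 2 or Sdc4-/- replicate 1 and to 1 with the control covariate. Besides Il6 they included the oncostatin M receptor gene Osmr (4.00) and Pim1, a kinase induced by Stat3 (4.36). Of 20 chemokine genes 6 were higher, with Cxcl5, which draws neutrophils, reading 4.97, 4.13 and 4.75 in wild type cells against 10.04, 10.63 and 8.24 in Sdc4-/- cells (5.03) and Ccl4 at a difference of 3.97. With the control covariate 3 chemokine genes were called. Acute phase and metallothionein genes were higher for 5 and lower for 2 of 18, and the higher count fell to 2 without wild type replicate 2 or Sdc4-/- replicate 1 and to 3 without wild type replicate 3 or Sdc4-/- replicate 2. It was 0 with the control covariate. Saa3, an acute phase apolipoprotein, read 8.62, 4.49 and 9.29 against 12.94, 11.74 and 12.28 (4.86, adjusted p = 0.0197), and was not called without wild type replicate 2 (3.37) or Sdc4-/- replicate 1 (4.55). Lcn2, an iron-siderophore binding protein, differed by 4.56. Osmr, Pim1, Cxcl5, Ccl4, Saa3 and Lcn2 all lost the call with the control covariate. Complement genes were higher for 2 of 13 and interferon-stimulated genes for 3 of 17. Among members that averaged 4 or more these were 2 of 9 and 3 of 12, beside 24.1% of all such genes.

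Of 25 immediate early genes, transcription factors and signalling inhibitors induced within minutes to hours of a stimulus, 10 were higher and 0 lower. Egr3 read 5.65, 3.55 and 3.53 in wild type cells against 9.87, 9.72 and 9.11 in Sdc4-/- cells (5.32). Zfp36, which encodes tristetraprolin, an RNA-binding protein that destabilizes messages with AU-rich elements, read 5.12, 4.86 and 5.29 against 8.10, 8.10 and 7.78. The arrays of each group spread little here, and the difference of 2.90 ± 0.19 had an adjusted p of 2.73e-06 in limma. Ier5 (5.10) and Ier3 (1.68) were higher as well, but not with the control covariate, under which 3 of the 25 were called.

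The lysosome list had the largest share of calls. Of 24 genes for lysosomal hydrolases and the proton pump that acidifies the organelle 18 were higher and 0 lower, with a median of 3.62, and 16 to 19 were higher with any one 12 h array left out. With the control covariate 5 were. Atp6v0d1, a membrane subunit of the V-ATPase, read 3.54, 3.41 and 3.20 in wild type cells against 7.11, 7.11 and 6.67 in Sdc4-/- cells, a difference of 3.58 ± 0.20 (limma adjusted p = 8.14e-07). Atp6v1a, its catalytic subunit, read 3.95, 4.62 and 4.44 against 8.52, 7.92 and 8.12 (3.85). Both carry a CLEAR motif in the windows printed above. Psap, the precursor of the saposins that assist lipid hydrolysis, differed by 4.11 and Atp6ap1, an accessory subunit of the pump, by 4.97. These 4 genes were called in every setting.

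Of 36 oxidative phosphorylation genes 15 were higher, 1, Uqcrh, was lower and 20 were not called, with a median of 2.08. With the control covariate 5 were higher. Ndufa1, a subunit of complex I, read 4.64, 5.48 and 4.71 in wild type cells against 9.79, 10.59 and 10.09 in Sdc4-/- cells, a difference of 5.21 ± 0.25 that shared the smallest adjusted p among the genes named here (limma, 2.99e-07). Cox5a (6.14) and Cox4i1 (3.61) of complex IV and Atp5c1 of the ATP synthase (5.59) were likewise higher in every setting. Of 15 glycolysis genes 4 were higher and 11 were not called. The count was 0 with the control covariate, and was 1 without Sdc4-/- replicate 1 or replicate 2, 2 without wild type replicate 3 and 6 without wild type replicate 1. Of 28 proteasome genes 17 were higher and 0 lower (median 2.09). Psma2, a core particle subunit, differed by 3.25 and Psma6, another, by 5.21. The proteasome count was 6 after a further quantile normalization and 1 with the control covariate.

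Endoplasmic reticulum folding genes were higher for 12 of 22 and lower for 0, with a median of 1.79 and 4 calls under the control covariate. Calr, a calcium-binding chaperone of glycoproteins, read 4.34, 3.16 and 2.66 in wild type cells against 8.60, 9.75 and 8.47 in Sdc4-/- cells (5.56, adjusted p = 5.2e-06). Hsp90b1, which assists the folding of integrins and Toll-like receptors, read 5.07, 4.35 and 5.66 against 8.45, 8.42 and 8.62 (3.47), and Canx, the membrane-bound partner of Calr, 7.18, 5.51 and 5.93 against 9.29, 9.62 and 10.11 (3.46). Dnajb11, a cochaperone of the same lumen, differed by 2.94. No wild type array reached the lowest Sdc4-/- array for any of them, and all 4 calls held in every setting. Of 22 cytosolic chaperone genes 7 were higher, among them the chaperonin subunit gene Cct5 (4.44). That count was 4 without Sdc4-/- replicate 2 or replicate 3, 3 after quantile normalization and 2 with the control covariate.

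Of 22 translation initiation and elongation genes 8 were higher (median 1.96), among them the helicase gene Eif4a2 (3.75), and of 26 cytosolic ribosomal protein genes 8 were higher (median 1.53), among them Rpl4 (2.82). Each of these counts was 1 after a further quantile normalization and they were 2 and 0 with the control covariate, and the ribosomal one was 3 without Sdc4-/- replicate 2 and 4 without Sdc4-/- replicate 3. Of 26 SR protein and hnRNP genes, which choose splice sites and package nascent RNA, 10 were higher and 0 lower, with 6 called under the control covariate. Hnrnpa2b1 read 7.32, 8.55 and 9.30 in wild type cells against 12.32, 11.63 and 12.66 in Sdc4-/- cells (3.82), and Hnrnpr (4.71), Srsf5 (3.67) and Srsf6 (3.68) were higher with no overlap between groups. Of 22 core spliceosome genes 3 were higher, with Snrpa1, a U2 snRNP protein, at 3.81, 3.96 and 3.88 against 7.74, 8.90 and 7.92 (4.31). Among the 18 of that list that averaged 4 or more 3 were higher, beside 24.1% of all such genes.

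Of 28 genes whose products bind the ends of messages or set their stability 12 were higher and 1 was lower (median 1.73). The higher count was 7 without Sdc4-/- replicate 2, 5 after quantile normalization and 3 with the control covariate. Besides Zfp36 they included its paralogs Zfp36l1 (2.28) and Zfp36l2 (3.39), the deadenylase subunit gene Cnot7 (2.84) and Celf2, a regulator of splicing and decay (4.16 in 1 of its 7 probe sets, with 2 others called lower). Celf4, its neuronal relative, was the lower member, at 5.52, 6.35 and 6.07 in wild type cells against 4.23, 3.76 and 4.63 in Sdc4-/- cells (-1.77). Elavl1, which encodes the stabilizing protein HuR, read 4.94, 5.09 and 5.01 against 5.09, 5.20 and 4.78 (0.01, adjusted p = 0.992), with the groups overlapping, and 2 of its 6 probe sets were called lower, by up to -1.06. In the miRNA pathway 1 of 14 genes was higher and 1 lower, 7.14% each, beside 8.68% and 10.4% of all genes.

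**Figure D4:**
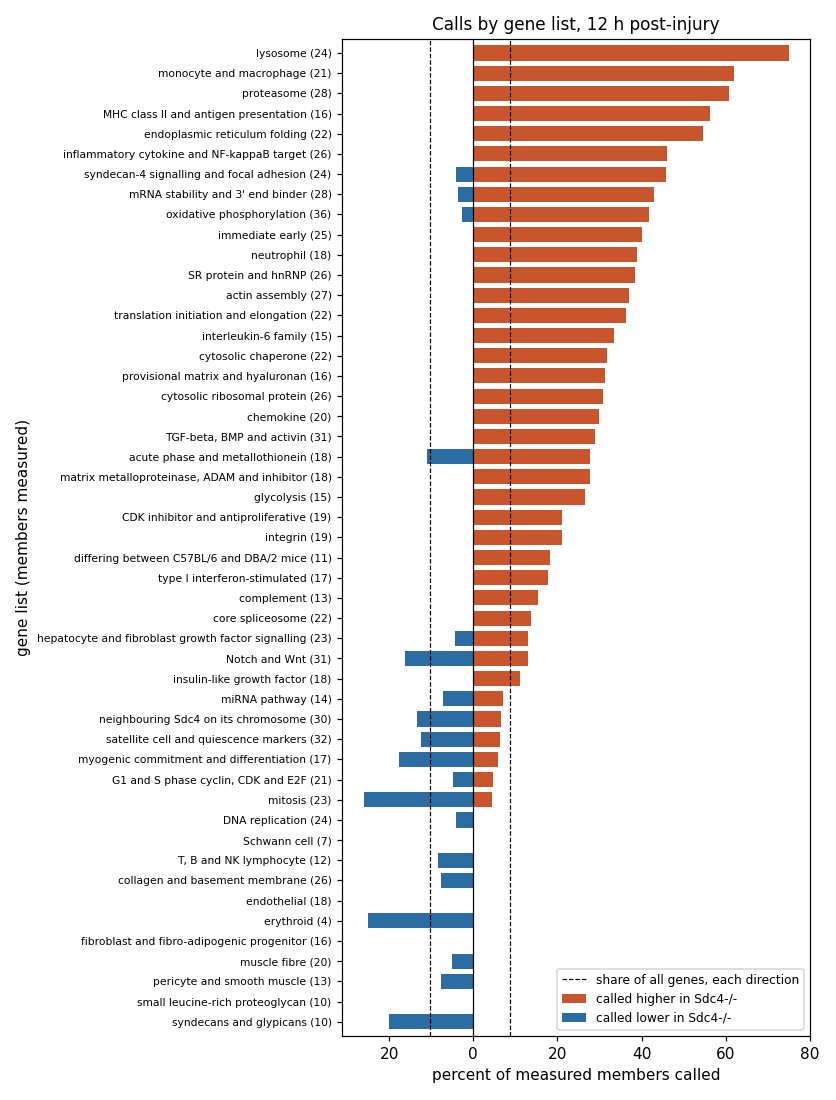
Percent of the measured members of each gene list called higher (right) and lower (left) in Sdc4-/- cells, with the number measured in parentheses. Dashed lines mark the shares of all genes, 8.68% higher and 10.4% lower. Over genes that averaged 4 or more, which the lines do not show, these shares were 24.1% and 1.66%. Lysosome, macrophage, proteasome, antigen presentation and endoplasmic reticulum folding lists lie furthest to the right, and satellite cell, myogenic and cell cycle lists lie near or under the share of all genes higher.

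Partners and effectors of syndecan-4 were examined as a group. Of 24 genes for syndecan-4 signalling and focal adhesion 11 were higher and 1 was lower (median 1.72), with 1 higher under the control covariate. Fn1, which encodes fibronectin, a ligand of syndecan-4 in the provisional matrix, read 4.7999, 3.69 and 2.65 in wild type cells against 9.46, 10.64 and 8.82 in Sdc4-/- cells (5.93). Rhog, a small GTPase of Rac activation, differed by 2.98. Rac1 read 8.41, 8.19 and 8.76 against 9.69, 9.54 and 10.31, a difference of 1.39 that was -0.31 after a further quantile normalization, so that its direction depended on the scaling. Of the other syndecans and glypicans none was higher and 2 of 10 list members were lower, beside 10.4% of all genes. In the list of genes differing between C57BL/6 and DBA/2 mice 2 of 11 were higher. As wild type mice were hybrids of these strains, the list can separate the groups only in part. Among its 8 members that averaged 4 or more 2 were higher, beside 24.1% of all such genes. Of 30 measured genes neighbouring Sdc4 on its chromosome, which a deletion made in another strain can carry along, 2 were higher and 4 lower. These shares, 6.67% and 13.3%, stood beside 8.68% and 10.4% of all genes.

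Actin assembly genes were higher for 10 of 27 (median 1.92) and lower for 0. Capza2, a subunit of the protein that caps growing filaments, read 3.70, 3.10 and 2.74 in wild type cells against 9.44, 8.9955 and 10.06 in Sdc4-/- cells, a difference of 6.32 ± 0.30 (limma adjusted p = 2.99e-07). Arpc5 of the Arp2/3 complex read 5.74, 3.59 and 3.58 against 9.65, 9.24 and 9.43 (5.14), while its other probe set was called lower (-0.27), and Tmsb4x, which sequesters actin monomers, differed by 3.11. The first 2 were called in every setting, and 4 members were with the control covariate. Cd44, a hyaluronan receptor, differed by 4.29, a call lost with the control covariate. Provisional matrix genes were higher for 5 of 16, matrix metalloproteinase and ADAM genes for 5 of 18 and integrins for 4 of 19. Among the 11 integrins that averaged 4 or more 3 were higher, beside 24.1% of all such genes. The integrin count was 2 without wild type replicate 2. The provisional matrix count was 3 without wild type replicate 2 or 3 or Sdc4-/- replicate 1 or 2. Collagen and basement membrane genes were lower for 2 of 26, beside 10.4% of all genes, and no small leucine-rich proteoglycan gene of 10 was called.

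Among growth factor pathways, TGF-beta, BMP and activin genes were higher for 9 of 31 and lower for 0, with 2 higher under the control covariate. Id2, a dominant-negative helix-loop-helix protein that blocks differentiation factors, read 5.39, 4.64 and 5.14 in wild type cells against 12.39, 11.72 and 11.005 in Sdc4-/- cells (6.65 ± 0.38, limma adjusted p = 1.03e-06), although only 1 of its 3 probe sets was called. Inhba, the activin A subunit, differed by 4.66, its antagonist Fst by 3.72 and the signal transducer Smad4 by 4.47. Notch and Wnt genes were higher for 4 and lower for 5 of 31, and the higher count was 2 without wild type replicate 2, Sdc4-/- replicate 2 or Sdc4-/- replicate 3. The lower count was 2 without Sdc4-/- replicate 1 or 2 and 3 without wild type replicate 2 or 3. Over all genes 8.68% were higher and 10.4% lower, beside 12.9% and 16.1% of this list. Hepatocyte and fibroblast growth factor signalling was higher for 3 and lower for 1 of 23, and the insulin-like growth factor list was higher for 2 of 18. Among members that averaged 4 or more these higher counts were 3 of 11 and 2 of 11, beside 24.1% of all such genes.

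Few satellite cell and cell cycle genes were called higher, and those called lower all averaged under 4 over the fitted arrays. Of 32 satellite cell and quiescence markers 2 were higher and 4 lower, with a median of -0.05, and of 17 genes of myogenic commitment and differentiation 1 was higher and 3 lower. Of all genes 8.68% were higher and 10.4% lower. Among genes that averaged 4 or more, the medians were 0.72 over 11 satellite cell markers, 1.10 over 4 myogenic genes and 1.03 over 8 mitosis genes, beside 0.72 over all such genes. The 4 lower satellite cell markers were 1 without Sdc4-/- replicate 1 or 2 and 2 without Sdc4-/- replicate 3 or wild type replicate 2, and the 2 higher ones were 4 without Sdc4-/- replicate 3. The higher ones were Vcam1, an adhesion molecule of satellite cells and of activated endothelium and myeloid cells, which read 3.14, 3.42 and 3.24 in wild type cells against 6.24, 7.13 and 7.54 in Sdc4-/- cells (3.70), and Foxo3, a transcription factor of quiescence, at a difference of 1.67 that was 0.25 and not called after a further quantile normalization. DNA replication genes were higher for 0 and lower for 1 of 24, mitosis genes for 1 and 6 of 23, and G1 and S phase genes for 1 and 1 of 21. The share of mitosis genes called lower, 26.1%, was thus above the 10.4% of all genes. Without wild type replicate 2 or Sdc4-/- replicate 2, 3 of the 6 lower mitosis calls were left. Mki67, a marker of cycling cells, was the mitosis gene that was higher, at 5.22, 5.40 and 3.25 against 9.50, 7.22 and 8.86 (3.90), and Cdt1, a licensing factor of replication origins, the G1 and S phase gene, at 2.48, 2.40 and 2.38 against 7.18, 7.17 and 8.35 (5.15), with another of its 3 probe sets called lower (-0.48). Pcna, the sliding clamp, read 8.90, 6.23 and 9.43 against 8.29, 8.47 and 9.23, with the groups overlapping.

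E2f3, a transcription factor of S phase entry, was lower at 5.27, 3.37 and 4.58 in wild type cells against 3.18, 3.18 and 3.20 in Sdc4-/- cells (-1.22, adjusted p = 0.028), a call lost without any one of the 12 h arrays other than wild type replicate 2, with differences of -0.79 without wild type replicate 1, -1.13 without wild type replicate 3 and -1.22, -1.22 and -1.23 without Sdc4-/- replicates 1, 2 and 3. Cdk2 differed by 0.13 (adjusted p = 0.773) and its other probe set was called lower (-1.04). Of 19 CDK inhibitor and antiproliferative genes 4 were higher and 0 lower, which was 7 without wild type replicate 1 and 2 with the control covariate. They were the atypical cyclin gene Ccng2 (3.41) and the BTG family genes Tob1 (3.65), Tob2 (2.41) and Btg1 (3.45). Btg1 read 10.93, 8.32 and 8.85 in wild type cells against 13.17, 12.48 and 12.81 in Sdc4-/- cells, with no overlap.

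The genotype difference at 12 h was set beside those of uninjured cells and of cells 48 h post-injury, which came from other arrays. In uninjured cells 778 genes were called between genotypes (4.28%), 240 higher (1.32%) and 538 lower (2.96%) in Sdc4-/- cells. At 48 h 1115 were called (6.13%), 855 higher (4.7%) and 260 lower (1.43%). Of the 3466 genes called at 12 h, 81 (2.34%) were also called in the same direction in uninjured cells and 420 (12.1%) at 48 h. A contrast of the 12 h difference with the mean of the other 2 called 1407 genes (7.73%), 770 more positive (4.23%) and 637 more negative (3.5%) at 12 h, including 1220 (35.2%) of the 3466. Over probe sets it called 3022 (6.7%), 1217 more positive (2.7%) and 1805 more negative (4%). Those 2 counts were 373 and 61 with the control covariate, and 497 and 206 with all 18 arrays fitted. These contrasts share the 12 h arrays, so the overlap is partly fixed by them.

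The order of the 6 group means was then compared. Of the 1580 genes called higher the wild type 12 h mean was the lowest of the 6 group means in 1384 (87.6%; 21.7% of all genes). Wild type cells had a median level over these genes of 7.27 uninjured, 4.07 at 12 h and 7.14 at 48 h, and Sdc4-/- cells of 7.55, 7.28 and 8.19. The same wild type arrays chose these genes, so the shares are a description. Csf1r, for example, averaged 11.4, 2.95 and 12.7 in wild type cells against 14.2, 12.3 and 12.9, and Ndufa1 10.9, 4.95 and 11.2 against 10.4, 10.2 and 11.5. For both genes the wild type 12 h arrays alone stood apart among the fitted arrays. The uninjured wild type replicate left out of the fit does not enter these means. It had 4512 probe sets above 5 and hybridization controls averaging 12.8, nearer the wild type 12 h arrays than the other uninjured wild type arrays. Il6 averaged 10.3 uninjured and 3.54 at 12 h in wild type cells, and 7.57 and 10.3 in Sdc4-/- cells. Of the 1886 genes called lower the wild type 12 h mean was the highest of the 6 in 1836 (97.3%; 34.3% of all genes).

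In 299 of the 1580 genes (18.9%; 9.21% of all genes) the Sdc4-/- 12 h mean was the highest of the 6 groups. Several of these were inflammatory or immediate early genes. Cxcl5 averaged 9.64 in Sdc4-/- cells at 12 h and between 2.84 and 4.85 in every other group, and Serpinb2 10.3 there against 3.53 to 6.64 elsewhere. Saa3 averaged 12.3 in Sdc4-/- and 7.47 in wild type cells at 12 h, and 8.31 and 11.9 in the same order at 48 h. Id2 and Egr3 also peaked in Sdc4-/- cells at 12 h, at 11.7 and 9.57. Zfp36 differed between genotypes at each time, by -1.28 in uninjured cells, 2.90 at 12 h and 1.78 at 48 h, all called.

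**Figure D5:**
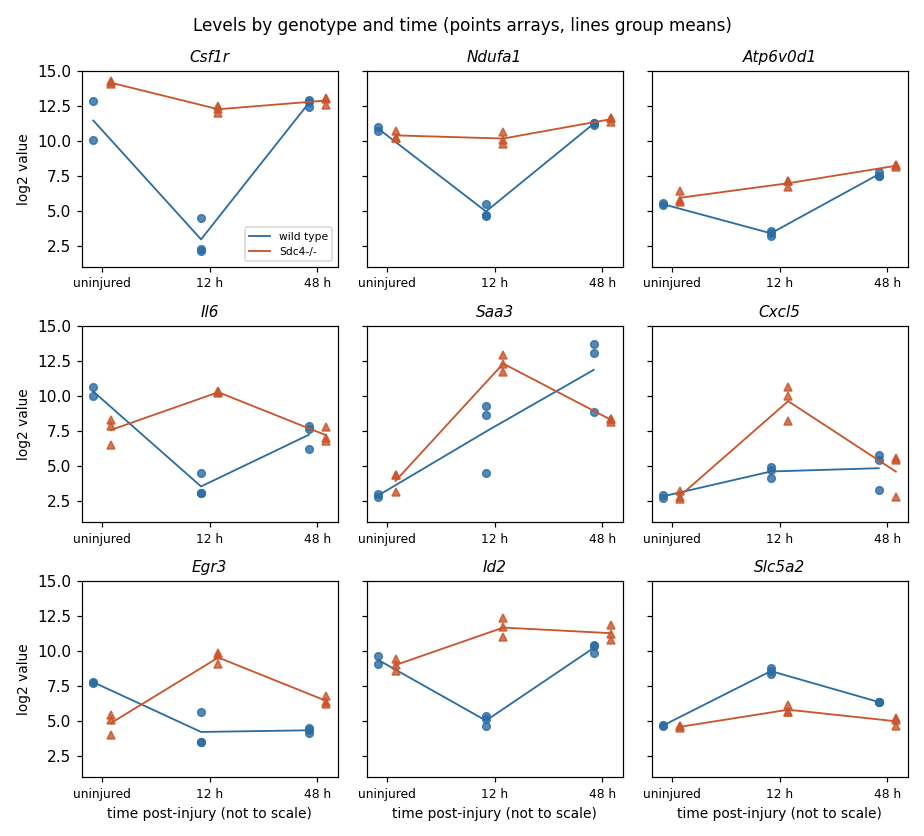
Log2 values on each fitted array (points) and group means (lines) of 9 genes in wild type (circles) and Sdc4-/- (triangles) cells. Cells came from uninjured muscle and from 12 h and 48 h post-injury, and the time axis is not to scale. Csf1r, Ndufa1, Atp6v0d1 and Id2 dip in wild type cells at 12 h, Saa3, Cxcl5 and Egr3 peak in Sdc4-/- cells at 12 h, and Slc5a2 is highest in wild type cells at 12 h.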

How the data were processed

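Total RNA from 5000 cell equivalents of sorted cells was amplified by 2 rounds of T7 linear amplification and hybridized to Affymetrix mouse genome arrays. The authors normalized the intensities by GCRMA, per the labels and the study's methods, and deposited log2 values, with no detection calls. Program versions are not given in the sources used here. The values were used as deposited. Depth has no meaning for arrays, and their number (3 a group) limits the precision.

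Samples were grouped by genotype and time from their titles. One limma fit (limma 3.58.1, R 4.3.3, lmFit and eBayes) held 1 mean for each of the 6 groups on 17 arrays, with 11 residual degrees of freedom and a prior of 1.2. The authors left out 1 uninjured wild type replicate, taken here to be replicate 3. Benjamini-Hochberg adjustment ran over 45101 probe sets. Of these 34958 had 1 symbol, 932 several and 9211 none in the annotation of the array, and for each of 18194 genes the probe set of highest mean was used. The 12 h genotype difference was also contrasted with the mean of those at 0 and 48 h.

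The members and the 49 gene lists (1028 genes, 940 matched, 88 not) were chosen with earlier results of these data known. Genes were named by rule: the 15 largest differences in each direction among called genes whose arrays did not overlap and whose higher group averaged at least 5, up to 4 called members of each list with the smallest adjusted p (2 with the highest mean where none was called), genes of the study's PCR assays, and Sdc4, Sdc3, Myod1, Pax7 and Saa3 always. Not every such gene is printed. Ctsa, Ctsd, Myf5 and Cdh15 are named outside the rule.

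When data with this design were simulated, changes by 1 in log2 were called in 39 of 100 probe sets and changes by 3 in 80 of 100, beside 10 false calls. The simulated noise was independent between arrays, with the same spread in every group and no array-wide differences. The simulation therefore does not measure the error of the calls in the real arrays, which do differ as a whole. Alternatives were all 18 arrays, the 6 arrays alone, eBayes with trend and robust, array weights, a further quantile normalization, a shift by the 75th percentile, a minimum mean of 4, no moderation, the hybridization-control level as a covariate, the replicate number as a block, averaging the probe sets of each gene for the lists, and leaving out each array.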

Additional observations from a re-analysis of the deposited data

Results flagged for a closer look

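In 84 of the genes named above the genotype difference at 12 h differed from the mean of the genotype differences in uninjured cells and at 48 h, in a limma contrast of its own with an adjusted p under 0.05. The size of this contrast is given for each on the log2 scale, positive where the difference was more positive at 12 h. Among myeloid, antigen presentation and inflammatory genes it was 8.13 for Il6, 8.01 for Grn, 7.86 for Csf1r, 7.04 for Pf4, 6.99 for Serpinb2, 6.80 for Ccl6, 6.36 for Ccl9, 6.23 for H2-Aa, 6.12 for Saa3, 5.44 for Ctss, 5.12 for Cxcl5, 4.85 for Ptgs2, 4.64 for Csf1, 4.32 for Osmr, 4.06 for Il1rn, 4.06 for Tnfrsf1b, 3.94 for C1qb, 3.91 for Trem1 and 2.76 for Pim1. Immediate early, growth factor and cell cycle regulators gave 6.31 for Id2, 5.73 for Egr3, 5.35 for Bcl2l11, 4.71 for Fst, 4.63 for Ier5, 4.26 for Mki67, 3.91 for Smad4, 3.87 for Btg1, 3.70 for Cdt1, 3.66 for Tob1, 3.41 for Ccng2, 3.19 for Inhba, 1.54 for Tob2 and 1.47 for Ier3. For lysosome, mitochondrial, folding and proteasome genes the values were 7.32 for Mrpl39, 6.82 for Cct3, 6.47 for Cox5a, 5.40 for Atp5c1, 5.29 for Ndufa1, 5.05 for Calr, 4.73 for Psma6, 4.40 for Cct5, 3.94 for Atp6ap1, 3.75 for Hsp90b1, 3.51 for Cox4i1, 3.04 for Atp6v0d1, 2.99 for Atp6v1a, 2.97 for Canx, 2.93 for Psma2, 2.78 for Psap and 2.39 for Dnajb11. RNA processing, stability and translation genes showed 7.21 for Eif4h, 6.06 for Bzw1, 5.85 for Hnrnpr, 5.07 for Snrpa1, 4.74 for Hnrnpa2b1, 3.93 for Srsf6, 3.57 for Eif4a2, 3.31 for Celf2, 3.07 for Srsf5, 2.77 for Cnot7, 2.72 for Rpl4, 2.65 for Zfp36 and 2.31 for Zfp36l1. Adhesion, actin and trafficking genes showed 8.08 for Efhd2, 7.44 for Vamp3, 5.76 for Fn1, 5.52 for Capza2, 5.46 for Rnf149, 4.82 for Vcam1, 4.36 for Arpc5, 3.80 for Cd44, 2.81 for Tmsb4x and 2.48 for Rhog. It was negative for genes lower in Sdc4-/- cells, -3.03 for Slc16a8, -2.98 for Pik3ip1, -2.84 for Uqcrh, -2.77 for Scaf4, -2.56 for Rnf222, -2.53 for Tjp3, -2.47 for Col22a1, -2.23 for Ucma, -2.02 for Slc5a2 and -1.85 for Celf4. Pax7 is the exception in form. Its contrast of 1.16 came from uninjured cells, where it was lower in Sdc4-/- cells by -2.40, and not from 12 h, where it was at background in both genotypes.

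Of these genes Il6, Egr3, Zfp36 and Hnrnpr were lower in uninjured Sdc4-/- cells, by -2.75, -2.93, -1.28 and -2.27, and higher at 12 h, each a call of the same fit. The contrast uses the same wild type 12 h arrays as the 12 h difference, on which fewer probe sets were above background and the hybridization controls were brighter than on any other group of arrays, and the part of that in these values was not tested.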

How the results depend on the processing

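Probe sets called higher in Sdc4-/- cells (2468) were 899 with the 6 arrays alone and 487 after adjustment for the hybridization controls (the covariate), and those called lower (5386) were 1100 and 68. The lower count was also 3390 after quantile normalization, 2579 after the shift by the 75th percentile and 188 with a minimum mean of 4. With any one array left out, higher calls ranged from 1960 to 2588 and lower calls from 3195 to 6670. At the threshold of the study, higher probe sets (2443) were 1520 with the 6 arrays and 1618 with the covariate (2066 to 2530 with one array left out). Lower ones (976) were 401 with the 6 arrays, 2197 after quantile normalization, 161 with the minimum mean and 209 with the covariate (687 to 1468). For the contrast with the other times, 1217 higher became 497 with all 18 arrays and 373 with the covariate (971 to 1581). The 1805 lower became 206, 1088 after quantile normalization, 243 after the shift, 130 with the minimum mean, 2731 without moderation and 61 with the covariate (751 to 3569). The causes were not tested, except that the 6-array fit has fewer samples and uses only their own spread, and the minimum mean tests fewer probe sets.

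Among 176 genes followed, the sign turned, with a call on at least 1 side, for Gm13238 (0.22) and Tnfaip6 (-0.039) with the covariate, and Rac1 (-0.31), Pcna (-1.18) and Cct7 (-0.18) after quantile normalization. Of 29 uncalled genes, Pcna included, 15 changed sign in at least 1 setting, among them Fabp4, Rgs5, Elavl1 and Cdk2. Of 147 named genes called, 45 were called in every setting and 68 lost the call with the 6 arrays alone. List counts of 3 or fewer moved by at most 2 genes with one 12 h array left out. Same-numbered arrays did not deviate together (correlations of -0.03, 0.03 and -0.02), so the numbers do not pair the samples, and the replicate block gave 2349 higher and 4747 lower. Values near background, where most lower calls lie, have no reliable order.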
